A study of Arabidopsis thaliana with 4 samples.

Results

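The KNOX genes of Arabidopsis encode homeodomain transcription factors and fall into class I (STM, KNAT1, KNAT2 and KNAT6) and class II (KNAT3, KNAT4, KNAT5 and KNAT7). All 8 members were chosen as a gene family, by their TAIR10 gene identifiers. Of them, 7 were among the 27623 genes matched in all 4 libraries, and KNAT5 was matched in 3. Their RNA was measured by RIP-seq, the sequencing of RNA that precipitates with a protein, here CURLY LEAF (CLF), the histone H3 lysine methyltransferase subunit of Polycomb repressive complex 2. Wild-type Col-0 gave 2 libraries labelled control RIP, and the genotype clf-28/Myc-CLF gave 2 labelled CLF RIP, a clf mutant that carries a Myc-tagged CLF. All plants were 3 weeks old, of the Columbia ecotype, grown on sucrose medium in long days, and both groups were precipitated with an anti-Myc antibody after crosslinking. The labels do not name the promoter that drives Myc-CLF, the number of transgenic lines or whether plants were pooled. The groups, called the control pair and the CLF pair, follow the sample labels. The deposited tables are named the other way round, so every direction turns should the labels be in error.

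Class I KNOX proteins keep cells of the shoot meristem undifferentiated, in part by lowering gibberellin and raising cytokinin. Some class I genes are shut off in leaves by AS1, AS2 and Polycomb. Class II genes are expressed broadly in differentiating organs, where they act against the class I program. Both classes bind DNA together with BELL homeodomain partners. STM and KNAT1 are textbook targets of Polycomb repressive complex 2, and the comparison asks whether KNOX RNA was taken at different levels by CLF and by the control precipitation.

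Levels are FPKM, of which the tables hold 1 value per locus, that is fragments per kilobase and per 1000000 fragments. From the value of single reads, FPKM were scaled to about 10.0 and 9.55 M fragments in the control pair and to about 4.21 and 4.30 M in the CLF pair. A gene was tested if it reached 1 FPKM in at least 2 libraries, on log2(FPKM + 1) with limma, and p-values were Benjamini-Hochberg adjusted over all 14309 genes tested. At an adjusted p under 0.05, limma placed 98 genes (0.685%) higher and 77 genes (0.538%) lower in the CLF pair. With control replicate 1 or control replicate 2 left out it placed 0, while 1635 and 1605 genes had an unadjusted p under 0.05. With CLF replicate 1 left out it placed 1 higher and 4 lower, and with CLF replicate 2 left out 0 higher and 2 lower. Of the calls, 56.0% were higher in the values as given, against 45.3% by quantile and 42.6% by median-of-ratios scaling. The corresponding median log2 fold changes of all genes were 0.25, 0.02 and 0.01. The CLF gene itself stood at 25.9 and 27.1 FPKM in the control pair and at 4.24 and 25.7 FPKM in the CLF pair. The labels do not say whether the 2 libraries of each group came from separate plants, so p-values rest on a spread between libraries that may be technical.

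KNOX RNA of both classes was present in all libraries. In class I, 3 of 4 genes tested lay below 0 in the CLF pair and 1 lay above, with a median log2 fold change of -1.18. Without CLF replicate 2 that median was -0.43, with 2 of the 4 below 0. In class II, 3 of 3 genes tested lay above 0, with a median of 0.33 that became -0.00215 after quantile scaling, and KNAT5 was not tested. Relative to the median of all genes tested, the class I median was -1.44 and the class II median 0.07. By limma 0 of 7 members passed the adjusted threshold, where 1.22% of all genes tested did in either direction. An unadjusted p under 0.05 was reached by 2 of the 7, KNAT1 and KNAT4, and by 24.9% of all genes. The groups did not overlap at 4 of the 7 members, 2 higher (KNAT2 and KNAT4) and 2 lower (STM and KNAT1). Among all genes tested, 40.8% were higher and 18.7% lower without overlap. With 2 libraries per group, an exact two-sided permutation test of a single gene cannot go below 0.333. In such bulk samples, fewer cells that express a gene and less RNA per cell cannot be told apart. The groups also differ in genotype and in the Myc tag, and no input or total RNA library is among them. RNA bound by CLF, RNA carried over without binding and a genotype difference in transcript level therefore cannot be told apart either.

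**Figure D1:**
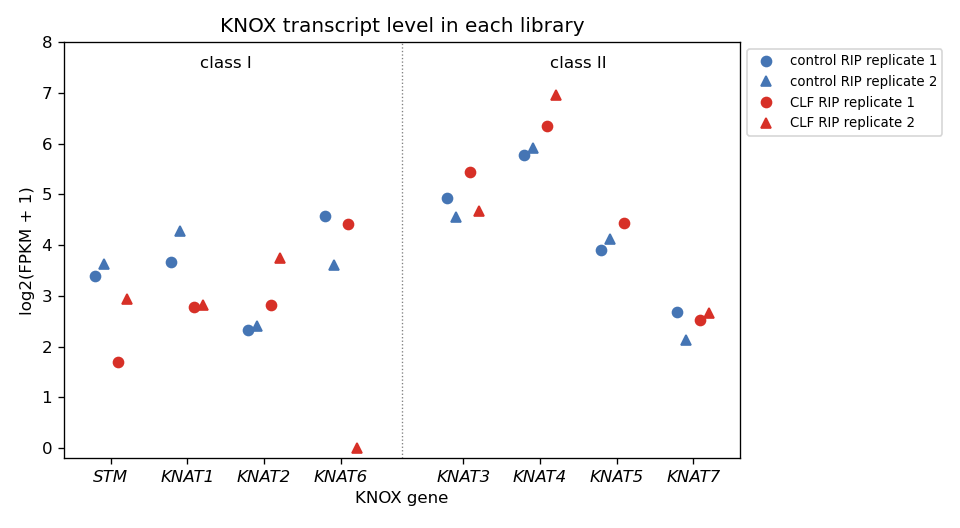
Level of each KNOX gene in each library, as log2(FPKM + 1), with class I on the left and class II on the right. Points are single libraries, circles for replicate 1 and triangles for replicate 2; the CLF points of STM and KNAT1 lie below both control points, those of KNAT2 and KNAT4 lie above, and KNAT5 has 3 points because no locus matched it in CLF replicate 2.

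STM (SHOOT MERISTEMLESS, AT1G62360), which is needed to form and keep the shoot meristem, was listed on chromosome 1 from 23058582 to 23061722 in all 4 libraries. Its level was 9.45 and 11.4 FPKM in the control pair and 2.23 and 6.67 FPKM in the CLF pair. Both CLF libraries lay below both control libraries, and the CLF pair lay far apart. The STM log2 fold change was -1.19 (SE 0.51) and missed the threshold (limma adjusted p = 0.260). It was -0.57 without CLF replicate 1 and -1.82 without CLF replicate 2, so its size rested on a single library. The transcript cannot be longer than the listed span, which bounds the reads behind each STM value at 279 and 318 in the control pair and at 27.6 and 84.1 in the CLF pair. Counting error alone is then at least 19.0% of the value in CLF replicate 1.

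KNAT1 (BREVIPEDICELLUS, AT4G08150), which shapes internodes and pedicels, was listed on chromosome 4 from 5147700 to 5150966, and from 5147665 in control replicate 1. Its level was 11.8 and 18.3 FPKM in the control pair and 5.85 and 6.04 FPKM in the CLF pair. The groups did not overlap, and the control pair was the more widely spread. The KNAT1 log2 fold change was -1.18 (SE 0.29), with a limma p of 0.0195 that did not pass after adjustment (adjusted p = 0.146). It stayed below 0 in all 13 alternatives that gave a value, between -1.47 and -0.85, and passed in 0 of them.

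KNAT2 (AT1G70510), which shares with KNAT6 a role in the inflorescence and carpel, went the other way from STM and KNAT1. It was listed on chromosome 1 from 26576486 to 26582431, and to 26582716 in CLF replicate 2. Its level was 4.04 and 4.26 FPKM in the control pair and 6.03 and 12.5 FPKM in the CLF pair, so both CLF libraries were higher. The KNAT2 log2 fold change was 0.92 (SE 0.40) and missed the threshold (limma adjusted p = 0.263). It was 0.45 without CLF replicate 2 and 1.39 without CLF replicate 1. As a ratio of levels within a library, KNAT2 lay at 0.428 and 0.375 of STM in the control pair and at 2.70 and 1.87 times STM in the CLF pair.

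KNAT6 (AT1G23380), which acts with STM at organ boundaries, was listed on chromosome 1 from 8297291 to 8302651, and from 8297262 in control replicate 1. Its level was 22.7 and 11.2 FPKM in the control pair, 20.4 FPKM in CLF replicate 1 and exactly 0 in CLF replicate 2. The groups overlapped, and the single value of 0 made the direction: the KNAT6 log2 fold change was -1.88 (SE 1.70, limma adjusted p = 0.529) and 0.33 without CLF replicate 2. An exact 0 can be a failed estimate. Smaller loci inside the gene were listed in that same library at 11.3 to 22.8 FPKM, beside 13.9 to 21.5 FPKM in CLF replicate 1, so reads over KNAT6 were present in both.

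In class II, KNAT4 (AT5G11060) was the most abundant KNOX RNA in every library. KNAT4 and its close relatives KNAT3 and KNAT5 act redundantly in organ differentiation. KNAT4 was listed on chromosome 5, and its locus reached from 3510036 to 3514205 at its widest ends across libraries. Its level was 53.8 and 59.5 FPKM in the control pair and 80.6 and 124 FPKM in the CLF pair, with no overlap. The KNAT4 log2 fold change was 0.81 (SE 0.27), with a limma p of 0.0439 and an adjusted p of 0.191. It was 0.60 by quantile and 0.52 by median-of-ratios scaling, and by limma the unadjusted p was then no longer under 0.05 (adjusted p = 0.310 and 0.342). Without CLF replicate 2 it was 0.50, and without CLF replicate 1 it was 1.12. At most 1637 and 2104 reads in the control pair and 1258 and 2071 reads in the CLF pair lay behind these values. Counting error can therefore be much smaller for KNAT4 than for STM.

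KNAT3 (AT5G25220) was listed on chromosome 5 from 8736074 to 8738584, and to 8738893 in CLF replicate 2. Its level was 29.3 and 22.4 FPKM in the control pair and 42.7 and 24.6 FPKM in the CLF pair. The second CLF library lay between the control libraries, so the groups overlapped. The KNAT3 log2 fold change was 0.33 (SE 0.37, limma adjusted p = 0.606), and it was -0.00215 after quantile normalization and -0.06 without CLF replicate 1.

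KNAT7 (AT1G62990), a regulator of secondary wall thickening in fibres and vessels, was the lowest class II gene. It was listed on chromosome 1 from 23337365 to 23340688, and from 23337225 in CLF replicate 2, at 5.37 and 3.40 FPKM in the control pair and 4.75 and 5.37 FPKM in the CLF pair. Both CLF values lay within the range of the control pair. Its log2 fold change was 0.19 (SE 0.27, limma adjusted p = 0.687), and its sign turned under both other scalings, to -0.03 and -0.05.

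KNAT5 (AT4G32040) was listed on chromosome 4 from 15494065 to 15496356, and to 15496467 in control replicate 1. Its level was 14.0 and 16.4 FPKM in the control pair and 20.7 FPKM in CLF replicate 1. In CLF replicate 2 the region was listed as 1 locus of 6783 bp, from 15494065 to 15500847, which also touched the neighbouring gene AT4G32050. That locus covered KNAT5 but was only 0.342 KNAT5 by length, below the overlap of 0.8 that was required, so its value of 13.1 FPKM, which lay below both control values, was not used for KNAT5. Over the genes matched in the other 3 libraries, a fit chosen after seeing the data gave a KNAT5 log2 fold change of 0.43 (SE 0.24, limma adjusted p = 0.373), in which the lone CLF library was assumed to vary like the control pair.

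The order of the levels differed little at the top and more at the bottom. In the control pair, KNAT4 at 56.7 ± 4.01 FPKM (SD, n = 2) lay apart from KNAT3 at 25.9 ± 4.89 FPKM. KNAT3, KNAT6, KNAT5 and KNAT1 followed, and no neighbours among them lay apart. STM at 10.4 ± 1.35 FPKM lay below KNAT1 and above KNAT7 without overlap, and KNAT7 and KNAT2 were not apart. In the CLF pair, KNAT4 at 102 ± 30.8 FPKM (SD, n = 2) and KNAT3 at 33.7 ± 12.8 FPKM again came first, each apart from the next. KNAT6, KNAT2, KNAT1, KNAT7 and STM followed in that order of means, and of these neighbours only KNAT1 at 5.95 ± 0.136 FPKM and KNAT7 at 5.06 ± 0.436 FPKM lay apart. The place of KNAT6 rested on values of 20.4 and 0 FPKM. KNAT5, with 20.7 FPKM in CLF replicate 1 and no match in CLF replicate 2, was not ranked in the CLF pair.

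Set side by side, the class II sum exceeded the class I sum in every library. Over STM, KNAT1, KNAT2 and KNAT6, the class I sum was 48.0 and 45.1 FPKM in the control pair and 34.5 and 25.2 FPKM in the CLF pair. Over KNAT3, KNAT4 and KNAT7, with KNAT5 left out, the class II sum was 88.6 and 85.4 FPKM in the control pair and 128 and 154 FPKM in the CLF pair. These sums were lower for class I and higher for class II in both CLF libraries, without overlap, and this held for the sums after median-of-ratios scaling and after quantile normalization. By the latter, class I was at 54.2 and 50.5 against 31.1 and 22.6, and class II at 98.6 and 92.4 against 117 and 143, on the FPKM scale. Without KNAT4 the class II sums overlapped, at 34.7 and 25.8 FPKM in the control pair and 47.5 and 29.9 FPKM in the CLF pair. Without KNAT6 the class I sums barely stayed apart, at 25.3 and 33.9 FPKM and at 14.1 and 25.2 FPKM. The ratio of class II to class I was 1.84 and 1.89 in the control pair and 3.71 and 6.12 in the CLF pair. KNAT4 made up 60.8% and 69.7% of the class II sum in the control pair and 62.9% and 80.6% in the CLF pair. With KNAT6 left out of class I, because of its value of 0, the ratio was 3.50 and 2.52 against 9.08 and 6.12. Without KNAT4 it was 0.723 and 0.572 against 1.38 and 1.19. The ratios stayed apart in both cases. A ratio within a library does not change with a linear scaling of that library. Members are not replicates, and no test over the members was made.

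**Figure D2:**
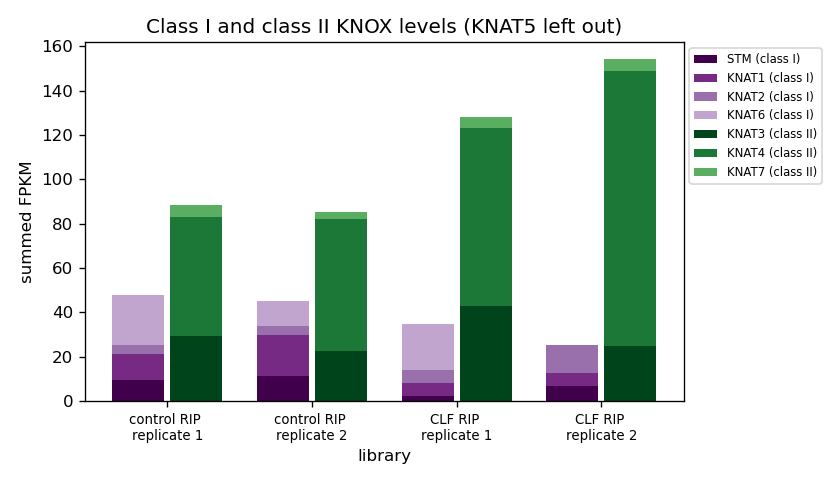
Summed FPKM of class I genes (left bar of each pair, purple) and class II genes without KNAT5 (right bar, green) in each library, stacked by gene. Class II summed to 88.6 and 85.4 FPKM in the control pair and to 128 and 154 FPKM in the CLF pair, while class I summed to 48.0 and 45.1 FPKM and to 34.5 and 25.2 FPKM.

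The tables also listed smaller loci inside the genes, and these differed between members in number and in pattern. KNAT3 and KNAT5 held 0 such loci in every library where they were matched, and KNAT4 held 1 in each, a long one at 12.7 and 11.3 FPKM in the control pair and 19.1 and 17.8 FPKM in the CLF pair. KNAT2 held the most, with 13 and 9 in the control pair and 10 and 8 in the CLF pair. The median was 1 in each library among 860 tested genes of 5000 to 7000 bp, and 0 of the others held as many as KNAT2 in every library, a comparison made after its values were seen. KNAT6 held 4 and 3 in the control pair and 3 and 4 in the CLF pair, STM held 6 and 7 against 4 and 3, and KNAT7 held 5 and 5 against 7 and 5.

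The number of smaller loci did not overlap between the groups at STM, with fewer in the CLF pair, and at KNAT1, with more. The share of all genes tested whose numbers did not overlap was not counted. At STM, 2 and 3 of these loci in the control pair and 3 and 0 in the CLF pair were 75 bp long, with 1 read each. The CLF pair was scaled to about 4.21 and 4.30 M fragments, against about 10.0 and 9.55 M, and the part of depth in these numbers was not tested. KNAT1 held 0 in both control libraries and 6 and 5 in the CLF pair, where those of at least 250 bp were listed at 13.3 to 34.6 FPKM and at 20.6 to 40.5 FPKM. Of all genes tested, 4.28% had smaller loci in both CLF libraries and in neither control library, and 3.07% had the reverse. A KNAT1 locus that began 886 bp from the start of the gene's locus was listed in both CLF libraries, and it ended at 1143 and 1139 bp. The KNAT1 loci held few reads, at most 21.4 and 18.2 in those of at least 250 bp, beside at most 75.5 and 79.5 reads in the gene's own locus. With those of at least 250 bp added, the bound on KNAT1 reads per M fragments was 36.5 and 56.0 in the control pair. It was 23.0 and 22.7 in the CLF pair, so the groups still did not overlap. KNAT1 loci shorter than 250 bp, listed only in the CLF pair, were left out, so reads over KNAT1 can exceed this bound there. The log2 ratio of the group means of this bound was -1.34 without the smaller loci and -1.02 with those of at least 250 bp. For KNAT2 the same ratio was 1.20 without and 0.61 with them, again without overlap. For KNAT6 the bound with smaller loci was 156 and 117 reads per M fragments in the control pair against 136 and 50.3 in the CLF pair, and the groups overlapped.

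**Figure D3:**
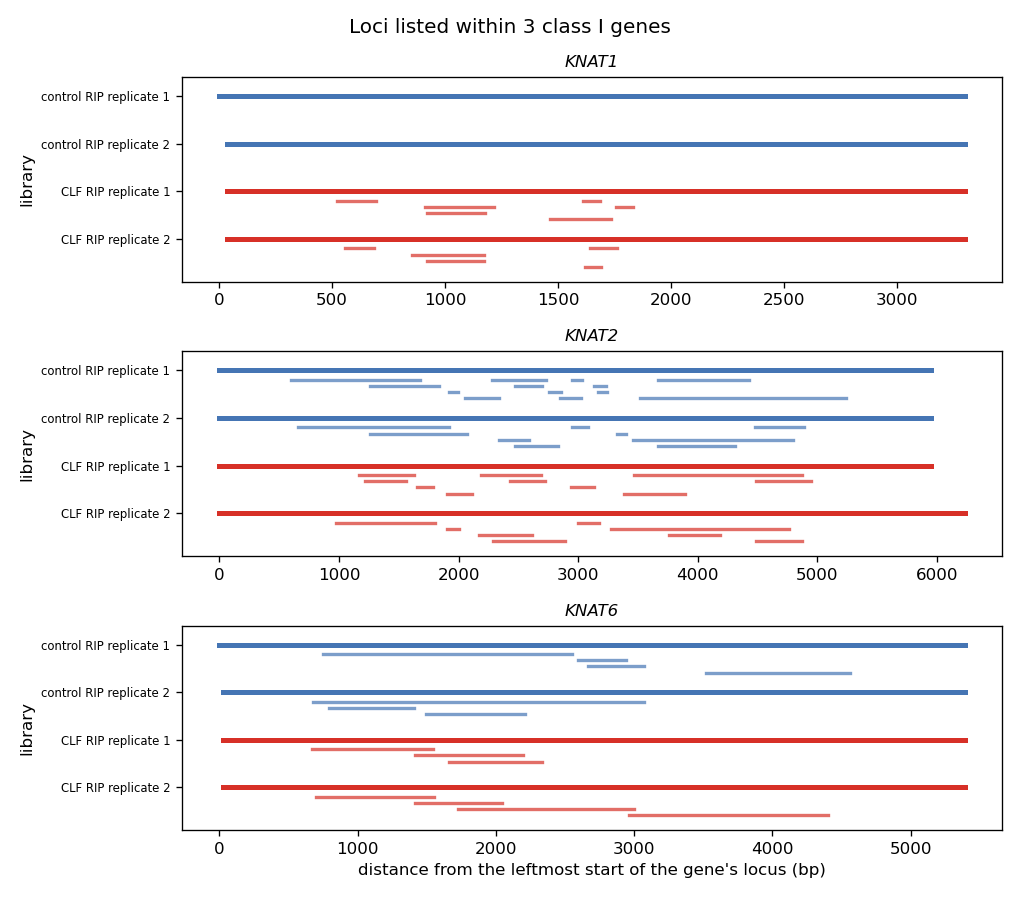
Loci listed within KNAT1, KNAT2 and KNAT6 in each library, in base pairs from the leftmost start of the gene's locus. The thick line is the gene's own locus and the thin lines are smaller loci inside it, blue for the control RIP and red for the CLF RIP; KNAT1 has 0 thin lines in both control libraries and 6 and 5 in the CLF pair.

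BELL homeodomain proteins pair with KNOX proteins and carry them into the nucleus. Of 13 genes on the list, 11 were tested, 7 lay above 0 and 4 below, and 0 passed by limma, while 4 had an unadjusted p under 0.05, as did 24.9% of all genes tested. The list's median log2 fold change was 0.36, beside 0.25 for all genes tested. SAW1 (BLH2, AT4G36870), which with SAW2 keeps KNAT1 out of leaf margins, was at 22.2 and 22.1 FPKM in the control pair and 75.4 and 81.4 FPKM in the CLF pair. Its log2 fold change of 1.78 (SE 0.16) fell just short of the threshold (limma adjusted p = 0.0514). The ovule gene BEL1 was at 26.0 and 27.5 FPKM against 93.5 and 56.1 FPKM (adjusted p = 0.131, limma). BLH1, whose protein binds KNAT3, was at 25.4 and 25.1 FPKM against 43.5 and 61.6 FPKM (adjusted p = 0.143, limma). BLH6, also at an unadjusted p under 0.05, lay lower in the CLF pair. It was at 3.36 and 2.56 FPKM against 1.65 and 1.01 FPKM (adjusted p = 0.190, limma). The summed level of the 13 BELL genes was 196 and 217 FPKM in the control pair and 406 and 337 FPKM in the CLF pair.

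Of 8 genes for KNOX repressors and OVATE family partners, 5 were tested and 0 passed by limma. An unadjusted p under 0.05 was reached by 1 of the 5, and by 24.9% of all genes tested. AS1, a MYB repressor of some class I KNOX genes in leaves, was at 7.24 and 5.93 FPKM in the control pair and 6.58 and 6.23 FPKM in the CLF pair. AS2, its partner, was at 1.75 and 2.71 FPKM against 1.47 and 1.83 FPKM. The groups overlapped at both genes. OFP5, whose protein binds KNOX and BELL proteins, was at 3.99 and 3.43 FPKM against 8.20 and 9.59 FPKM (limma adjusted p = 0.115). BOP2, a repressor of KNOX genes at the leaf base, was at 3.58 and 2.08 FPKM against 1.71 and 1.72 FPKM. OFP1 stood at 0.395 and 1.22 FPKM against 1.24 and 1.55 FPKM.

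Of 6 boundary and meristem genes (CUC1, CUC2, CUC3, WUS, CLV1 and CLV3), 0 were tested, since 5 were too low and CLV1 had no match in control replicate 1. CLV1, a receptor kinase of the meristem, was listed at 7.28 FPKM in control replicate 2 and at 13.2 and 12.2 FPKM in the CLF pair. WUS and CLV3, which mark the centre of the shoot meristem, were at or below 0.324 FPKM in the control pair and at 0 in the CLF pair. CUC1, a boundary gene that acts upstream of STM, was at 0.391 and 0.269 FPKM against 5.75 and 0.920 FPKM. CUC2 went the other way, at 0.105 and 0.543 FPKM against 0 and 0 FPKM. The groups overlapped at CUC3, with 0.111 and 0.230 FPKM against 0.261 and 0 FPKM. KNATM, a KNOX relative without a homeodomain, was at 0.765 and 0.466 FPKM against 0 and 0 FPKM, too low to be tested.

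Among hormone genes downstream of KNOX, GA20OX1, a gibberellin synthesis gene, was at 0.651 and 0.672 FPKM in the control pair and 3.68 and 2.41 FPKM in the CLF pair. Its log2 fold change was 1.27 (SE 0.24, limma adjusted p = 0.113). GA20OX1 passed the filter of 1 FPKM only through the CLF pair, where it was higher. Its p and its lack of overlap therefore lend no support. GA2OX2, which inactivates gibberellin, was at 8.30 and 10.7 FPKM against 16.6 and 13.6 FPKM (limma adjusted p = 0.239). Neither passed. Both were higher in the CLF pair without overlap, as were 40.8% of all genes tested. IPT7, a cytokinin synthesis gene, was too low to be tested. Of 7 secondary wall genes, the program in which KNAT7 acts, 3 were tested and 0 passed by limma. An unadjusted p under 0.05 was reached by 0 of the 3, and by 24.9% of all genes tested. The cellulose synthase genes CESA7, at 0.939 and 0.880 FPKM against 1.83 and 1.46 FPKM, and CESA4, at 1.62 and 1.75 FPKM against 2.21 and 3.21 FPKM, were low throughout. CESA7 also passed the filter only through the CLF pair, where it was higher. MYB46 was at 0.552 and 2.30 FPKM against 0.259 and 2.64 FPKM. NST1, picked with its values known, stood at 643 FPKM in control replicate 2 and at 0.680 to 0.998 FPKM elsewhere.

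**Figure D4:**
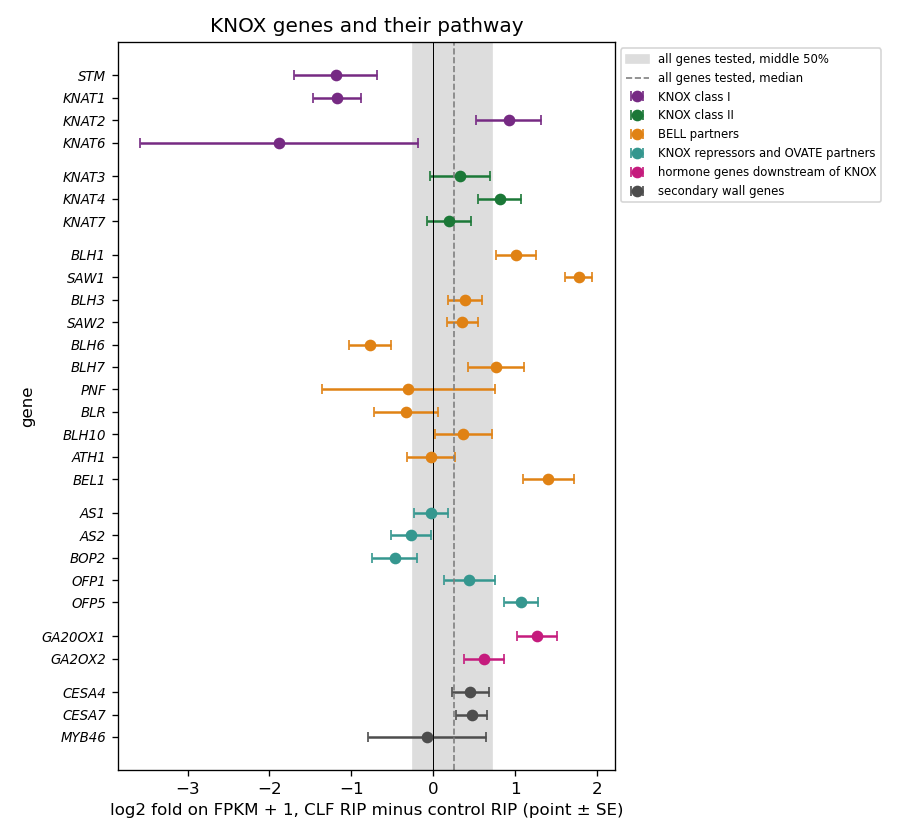
Log2 fold change on FPKM + 1, CLF RIP minus control RIP, of each tested KNOX gene and of the tested genes of the pathway lists, with bars of 1 SE from the limma fit over 2 libraries per group. The grey band is the middle 50% of all genes tested and the dashed line their median of 0.25. STM, KNAT1 and KNAT6 lie to the left of the band, as do BLH6, BOP2, BLR, PNF and AS2, and SAW1 lies farthest to the right.

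Leaf markers were lower in the CLF pair. Of 5 on the list 4 were tested and all 4 fell by limma, where 0.538% of all genes tested did: RBCS1A, LHCB1.3, CAB3 and RCA summed to 2711 and 2705 FPKM in the control pair and to 984 and 980 FPKM in the CLF pair. Their median log2 fold change was -1.52. All 5 flower markers (AP1, AP3, PI, AG and SEP3) lay lower in both CLF libraries, as did 18.7% of all genes tested, and 0 passed by limma. An unadjusted p under 0.05 was reached by 3 of the 5, and by 24.9% of all genes tested. Their sums were 47.3 and 59.7 FPKM against 15.2 and 12.2 FPKM. SEP3 had 16.7 and 14.3 FPKM in the control pair beside 2.52 and 1.47 FPKM in the CLF pair. AG was at 7.81 and 16.1 FPKM against 0.354 and 1.46 FPKM. AP3 stood at 1.32 and 1.12 FPKM against 0.283 and 0.567 FPKM. It was 1 of the 3 with an unadjusted p under 0.05. AP3 passed the filter only through the control pair, where it was higher, so its p lends no support. Of 5 root markers, PLT1, PLT2 and RHD6 were listed at 0 in all libraries, and the 5 summed to 3.67 and 3.29 FPKM against 3.67 and 4.45 FPKM, most of it SCR at 3.34 and 2.95 FPKM against 3.67 and 3.68 FPKM. The part of leaf and flower RNA in the KNOX values was not tested.

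The genes whose profile over the 4 libraries was most like that of STM, by the root mean square difference in log2(FPKM + 1), were AT4G16000 (0.200), OPR2 (0.213) and AT1G77090 (0.219). OPR2 was at 10.7 and 11.2 FPKM in the control pair and 2.97 and 5.40 FPKM in the CLF pair. Those most like KNAT3 were AT3G66654 (0.0883), OASA1 (0.116) and CID10 (0.123), and AT3G66654 was at 32.4 and 23.4 FPKM against 42.9 and 26.2 FPKM.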

How the data were processed

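Trimmomatic, TopHat2 2.0.10 and the TAIR10 genome are named per the submitters' processing notes. The authors' deposited FPKM come as 1 table per library, made by a program not given in the sources used here. Members and gene lists were chosen with earlier results of these data known. A gene took the row under its own identifier. Otherwise it took the locus with a reciprocal overlap of at least 0.8 with its RefSeq TAIR10.1 span, for spans of at least 300 bp, 1 gene per locus, and a value below that of 1 read on 75 bp. Of the members, STM in CLF replicate 1 was the only value under its own identifier. Printed coordinates are those of the tables, counted from 1. The labels do not say that the library kit keeps strand, and 0 other genes of the RefSeq table overlap a member.

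Limma 3.58.1 under R 4.3.3 was run with lmFit and with eBayes using a trended, robust prior, on a scale that understates changes of low genes, and was first tested on simulated data. Depth was fitted so that low values became whole reads. Within 0.1, 52.0% to 54.1% were whole, spliced genes being included. Read bounds take the listed span as length. From the pathway lists, genes past the threshold and the 3 with the smallest p are named, beside some singled out after their values were seen. Alternatives changed filter, pseudocount, scaling, prior, pairing, joining rule and libraries. Same-numbered replicates did not deviate together (correlation 0.02 over genes). Python 3.11.15, pandas 2.3.3, numpy 2.4.6 and matplotlib 3.10.9 were used.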

Additional observations from a re-analysis of the deposited data

How the results depend on the processing

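In every alternative that gave a value, 0 KNOX members passed the limma threshold, and STM, KNAT1, KNAT2 and KNAT4 kept their direction. None of the members carries its own identifier in all libraries, so that joining rule gave counts only, and an overlap of at least 0.9 left 5 members, without KNAT3 and KNAT4. The sign turned for KNAT3 (-0.00215 after quantile normalization, -0.060 to 0.71 with 1 library left out), for KNAT7 (-0.029 by quantile and -0.046 by median-of-ratios scaling, -0.075 to 0.46 with 1 library left out) and for KNAT6 (-4.09 without CLF replicate 1, 0.33 without CLF replicate 2). Members above 0 were 4 as reported, 2 after quantile normalization and at the stricter overlap, 3 after median-of-ratios scaling, without control replicate 2 and without CLF replicate 1, 5 without CLF replicate 2, and 4 in the other alternatives. The class I median was -1.34 and -0.80 at pseudocounts of 0.1 and 5, -1.45 by quantile and -1.44 by median-of-ratios scaling, and -1.36 to -0.43 with 1 library left out. The class II median was -0.00215 after quantile normalization. Class II minus class I was 1.51, and 0.94 to 1.87 with 1 library left out. Genes called higher and lower were 98 and 77 as reported, 70 and 205 without a filter, 10 and 8 at a pseudocount of 5, 25 and 14 without the trend and robust prior, 286 and 199 over genes under their own identifier, and 0 to 1 and 0 to 4 with 1 library left out. With the replicate block, 0 genes were called in either direction, where 2656 had an unadjusted p under 0.05. By counting error, STM, KNAT1 and KNAT7 were the least precise members above 0 in both CLF libraries. The causes were not tested.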
